A study of Caenorhabditis elegans with 2 samples.

Results

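The subject is the pair of 14-3-3 genes of the nematode Caenorhabditis elegans, ftt-2 and par-5, examined for peaks of the nuclear hormone receptor NHR-11. They are 2 of 19973 nuclear protein-coding genes, and were chosen by their family and by the signal and rank of the peaks at ftt-2 in these data. Every peak was taken whose summit, the position the caller gave as its highest point, fell in the gene body or within 2000 bp to either side. The peak values are therefore a description and carry no test. The samples form 1 group of 2 biological replicates of ChIP-seq, a method that sequences chromatin fragments pulled down with an antibody. All were whole L2 larvae of strain OP305, of pooled sexes, which carried the wgIs305 insertion of nhr-11 fused to eGFP in the unc-119(ed3) III background. The antibody label names nhr-11, and no source used here names the promoter that drives the transgene. No untagged, mutant or other-stage group was analysed, so occupancy was compared between replicates and between genes only. In whole larvae, weak occupancy in many cells and strong occupancy in few cells cannot be told apart.

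The 14-3-3 proteins are small acidic dimers that dock on phosphorylated serines and threonines of other proteins and so hold them in the cytoplasm, mask their sites or bridge them. PAR-5 is known for its part in the polarity of the worm zygote, where it helps keep anterior and posterior PAR proteins apart. FTT-2 is known for binding the FOXO factor DAF-16 downstream of insulin signalling and keeping it out of the nucleus, and both proteins bind the deacetylase SIR-2.1. The translated coding sequences of ftt-2 transcript F52D10.3a.1 and par-5 transcript M117.2a.1 had 248 residues each and were identical at 213 of 249 aligned columns (85.5%). The other ftt-2 transcript, F52D10.3c.1, differs from it by 1 coding exon and matched par-5 at 196 of 249 columns (78.7%).

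The stretches of DNA that carried the peaks at ftt-2 are shown first, because both hold the same run of 11 bases. Both are given on the minus strand of build ce11, the strand on which ftt-2 is transcribed, and capitals mark that run. The stronger peak is whole (chrX:11605804-11605986) and the weaker one is cut to 75 bp on each side of its summit (chrX:11606059-11606209).
ftt-2 stronger peak: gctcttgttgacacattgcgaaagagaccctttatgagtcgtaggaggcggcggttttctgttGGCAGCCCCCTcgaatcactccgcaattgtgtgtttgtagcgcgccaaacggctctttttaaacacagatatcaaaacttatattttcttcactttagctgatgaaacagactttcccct
ftt-2 weaker peak: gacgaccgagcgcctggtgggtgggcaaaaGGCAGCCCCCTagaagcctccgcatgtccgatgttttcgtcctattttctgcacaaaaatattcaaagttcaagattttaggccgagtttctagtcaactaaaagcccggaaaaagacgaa

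The run GGCAGCCCCCT stood at 2 places on the nuclear chromosomes when both strands were read, and these are the 2 places above. Along the minus strand it began at +9 from the summit of the stronger peak and at -45 from that of the weaker one. In each it was followed by CTCCGCA, after 7 bases in the stronger peak and after 6 bases in the weaker. The run was looked for after the sequences had been seen, and it was the longest of 6 runs of 7 or more bases that the stretches share. Of the 154 runs of 30 bases in the stronger peak and the 401 in the weaker one, 0 occurred a further time in the genome, mitochondrial DNA included. The windows of ftt-2 and par-5 shared 0 runs of that length. The G and C share was 45.4% in the stronger peak, against a median of 36.6% for windows of 183 bp at pooled summits and 43.2% at thresholded summits. For the weaker peak it was 48.3%, against medians of 36.4% and 44.4% for windows of 151 bp.

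Near ftt-2 (WBGene00001502, chromosome X, 11603708 to 11605419, minus strand) the thresholded list, in which the authors kept peaks that passed their irreproducible discovery rate procedure, had 2 peaks. Such a count of 2 or more was found for 23 of 19973 protein-coding genes (0.115%), and at least 1 for 417 (2.09%). The stronger peak (11605804 to 11605986) had its summit at 11605932, which is 513 bp upstream of the 5′ end. Its signal, a value of the authors' caller of unstated scaling, was 88.1 in the pooled list, 46.7 in replicate 1 and 44.0 in replicate 2. It ranked 27 of 13299 pooled peaks, 26 of 25831 in replicate 1 and 18 of 27015 in replicate 2. With mitochondrial peaks set aside these ranks were 5, 6 and 2, so the peak stood near the top of every list.

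The weaker peak (11605919 to 11606348) had its summit at 11606134, 715 bp upstream, and overlapped the stronger one by 68 bp. Its pooled signal was 37.0, with 13.1 in replicate 1 and 33.0 in replicate 2. It ranked 110 in the pooled list, 810 in replicate 1 and 30 in replicate 2. Within a list, where the caller's scale is shared, its signal was 42% of the stronger peak's in the pooled list, 28% in replicate 1 and 75.1% in replicate 2. The replicates therefore gave the stronger peak similar ranks and the weaker one ranks farther apart. Summits of the pair were 202 bp apart in the pooled list, 207 bp in replicate 1 and 243 bp in replicate 2. Overlap of this kind was uncommon, since 12 of the 254 nuclear thresholded peaks overlapped another of the list (4.72%).

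The stronger peak was also narrow. It spanned 183 bp where 430 bp is the usual width of the pooled list, and 115 bp in replicate 1 where 396 bp is usual, the smallest width in that list. In replicate 2 it had the usual 476 bp. Of the 13299 pooled peaks 14 were narrower than 430 bp, and 6 of those were nuclear. All peaks below the usual width ranked 140 or better in the pooled list.

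**Figure D1:**
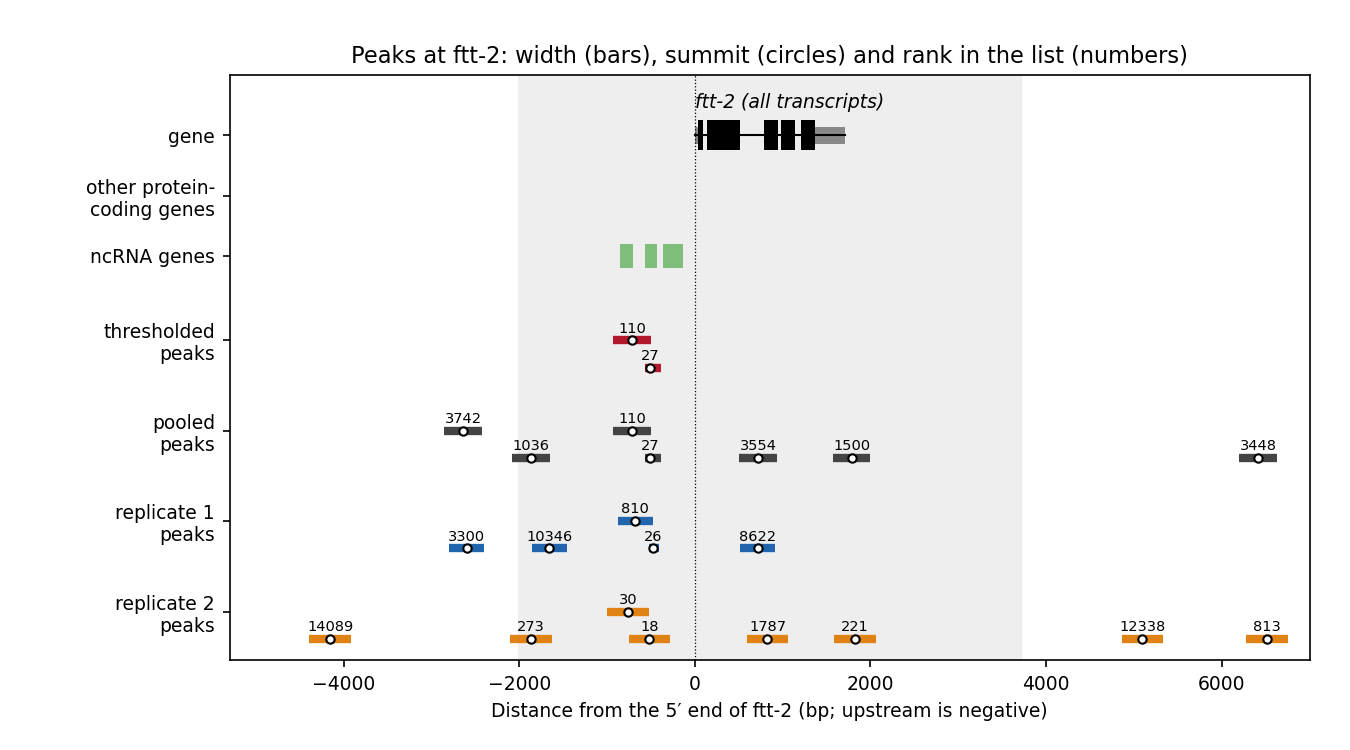
Peaks at ftt-2 by distance from its 5′ end in bp, with the gene read from left to right. Black boxes are coding exons, grey boxes untranslated exons, green boxes ncRNA genes, coloured bars the peaks of each list, circles their summits and numbers their ranks; the shaded area is the gene body with 2000 bp to either side. The peaks ranked 27 and 110 in the pooled list have their summits 513 and 715 bp upstream, inside annotated ncRNA genes.

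Both thresholded summits at ftt-2 fell inside short annotated ncRNA genes. The stronger summit lay in F52D10.7 (11605853 to 11605989, minus strand) and the weaker in F52D10.9 (11606129 to 11606277, minus strand). In replicate 1 the weaker summit, at 11606099, lay outside F52D10.9, while the stronger, at 11605892, was again in F52D10.7. A further pair, F52D10.11 and F52D10.12, lies between those genes and ftt-2 and held no summit of any list. Among all 254 nuclear thresholded summits 31 were inside a gene of this class (12.2%), and among 13271 nuclear pooled summits 449 (3.38%), while such genes cover 1.09% of the nuclear genome. No protein-coding gene stood in the window. The next ones are F52D10.4, 12050 bp beyond the 5′ end on the plus strand, and F52D10.2, 11987 bp beyond the 3′ end on the minus strand. Only 21 of 19973 protein-coding genes (0.105%) had a gap of at least 11987 bp on both sides, where the median of the smaller gap was 238 bp.

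Another 3 pooled peaks lay in the ftt-2 window below the thresholded list, for 5 in all. As many or more were found for 445 of 19973 genes (2.23%), and the median gene had 1. The outermost, with its summit 1868 bp upstream (11607072 to 11607501), had a signal of 18.3 and ranked 1036 in the pooled list, 10346 in replicate 1 and 273 in replicate 2. The summit in replicate 1 was 212 bp away from the pooled one. The peak at the other end of the gene (11603420 to 11603849) had its summit 73 bp past the annotated 3′ end, with a signal of 16.4 and pooled rank 1500. It ranked 221 in replicate 2 and had no overlapping peak in replicate 1.

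The last of these 3 lay within the gene (11604484 to 11604913), with its summit at 11604699 in the intron before the alternative exons, a signal of 12.8 and pooled rank 3554. It overlapped the exon of transcript F52D10.3a.1 (11604469 to 11604632) and not that of F52D10.3c.1 (11604277 to 11604440). Its rank was 8622 in replicate 1 and 1787 in replicate 2, where the summit at 11604592 was in the coding exon of F52D10.3a.1. Just outside the limit of 2000 bp, a pooled peak 2642 bp upstream had a signal of 12.6 and rank 3742. There replicate 1 had a peak at rank 3300 and replicate 2 had none. Within the limit, each of the 5 pooled peaks ranked better in replicate 2 than in replicate 1, or had no counterpart in replicate 1, and the ranks lay closest at the stronger upstream peak. Depth of the replicates is unknown, and its part in this was not tested.

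**Figure D2:**
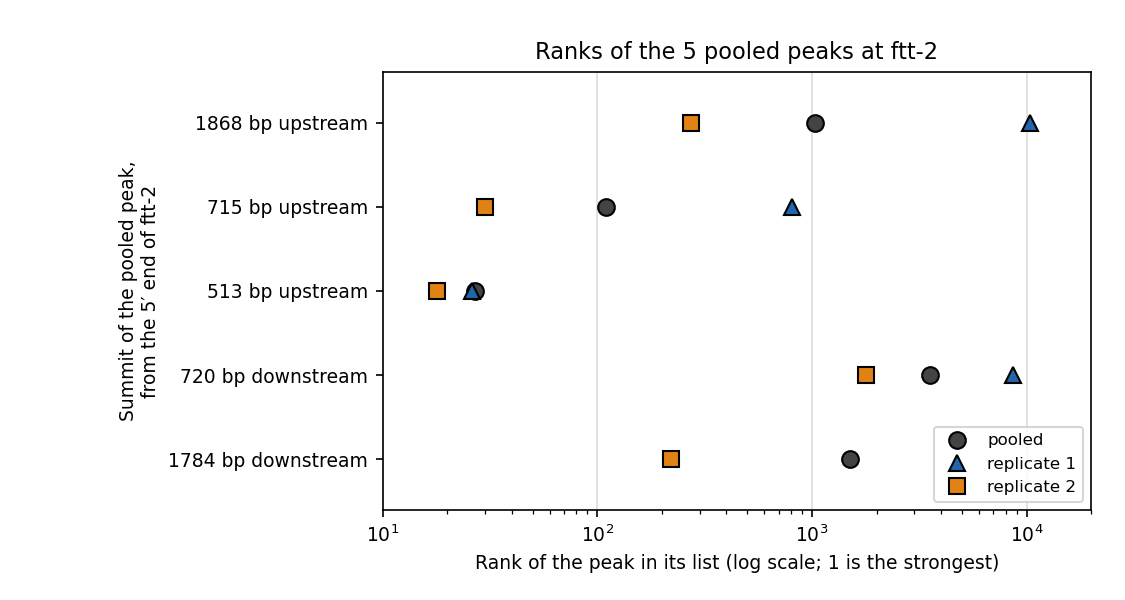
Rank of each of the 5 pooled peaks at ftt-2 (rows, by the distance of the summit from the 5′ end) in the pooled list (circles), in replicate 1 (triangles) and in replicate 2 (squares), on a log axis where 1 is the strongest peak. The symbols meet at the peak 513 bp upstream and spread at the others; the peak 1784 bp downstream has no symbol for replicate 1.

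No pooled peak, and so no thresholded one, was found near par-5 (WBGene00003920, chromosome IV, 11820506 to 11821924, minus strand). That was the case for 9041 of 19973 genes (45.3%), and the other 10932 had at least 1 pooled summit (54.7%). The nearest pooled summit was 6348 bp from the gene body, past its 3′ end, with a signal of 15.2 and rank 1915 (11813943 to 11814372). The nearest thresholded summit was 270642 bp away.

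The separate replicates did list peaks at par-5. Replicate 1 had 3, with signals of 5.38, 5.19 and 4.55 and ranks of 14384, 15583 and 20373 of 25831, all below the list's median signal of 5.63. Replicate 2 had 4, with signals of 6.23, 4.26, 3.35 and 3.12 and ranks of 4540, 12794, 19998 and 22311 of 27015, and the first 2 of these signals were above the list's median of 4.15. None of the peaks of 1 replicate overlapped one of the other, and the nearest were 124 bp apart. By position, the first 2 of replicate 1 had their summits in the 3′ UTR of par-5 and the last 1650 bp downstream of its 5′ end, past the gene. In replicate 2 the strongest summit lay in the 3′ UTR of the neighbour M117.1 (11814247 to 11819758, plus strand), and the next in an intron of M117.3, the gene on the opposite strand that begins 281 bp beyond the 5′ end of par-5. The others were in the ncRNA gene M117.11, 248 bp upstream of par-5, and in an intron of M117.1.

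Minus log10 q-values of the caller, where higher means stronger, ran from 0.0575 to 0.135 for par-5 in replicate 1 and from 0.0609 to 0.691 in replicate 2. The peaks at ftt-2 reached 2.91 in replicate 1 and 2.79 in replicate 2, the highest value in each list. Peaks can share that value: in replicate 2 the ftt-2 peaks ranked 18, 30, 221 and 273 all had it. Having a summit of a replicate list was usual, with 78.0% of genes for replicate 1 and 78.7% for replicate 2. Summits in both replicates and none in the pooled list, as at par-5, were found for 3567 of 19973 genes (17.9%). The number of summits differed less in the replicates than in the pooled list, which had 5 at ftt-2 and 0 at par-5. Replicate 1 had 4 summits at ftt-2 and 3 at par-5, for a median gene of 1. At least as many were found for 15.5% of genes (as at ftt-2) and 28.4% (as at par-5). Replicate 2 had 5 at ftt-2 and 4 at par-5 for a median of 2, with shares of 8.71% and 16.5%. By its strongest peak ftt-2 ranked 10 of 15580 genes in replicate 1 and 4 of 15714 in replicate 2. These high ranks follow from the choice of the pair by the signal and rank of the ftt-2 peaks. The rank of par-5 was 11479 in replicate 1 and 5049 in replicate 2. The strongest signal at par-5 was thus below the median gene's in replicate 1 (5.38 against 6.79) and above it in replicate 2 (6.23 against 5.16).

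**Figure D3:**
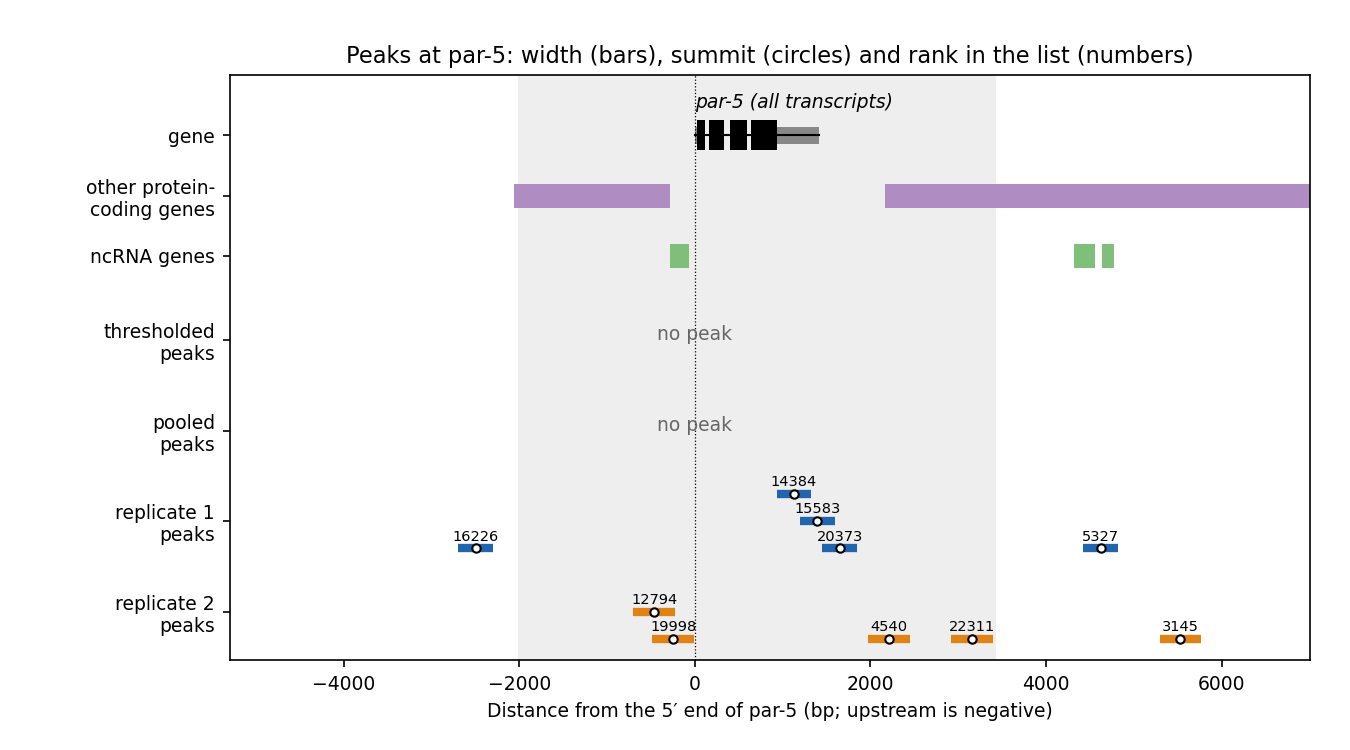
Peaks at par-5 by distance from its 5′ end in bp, drawn as for ftt-2, with other protein-coding genes in purple (M117.3 upstream, M117.1 downstream). The thresholded and pooled lists have no peak in the area shown, and the peaks of replicates 1 and 2 within the shaded window, ranked between 4540 and 22311, do not coincide.

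**Figure D4:**
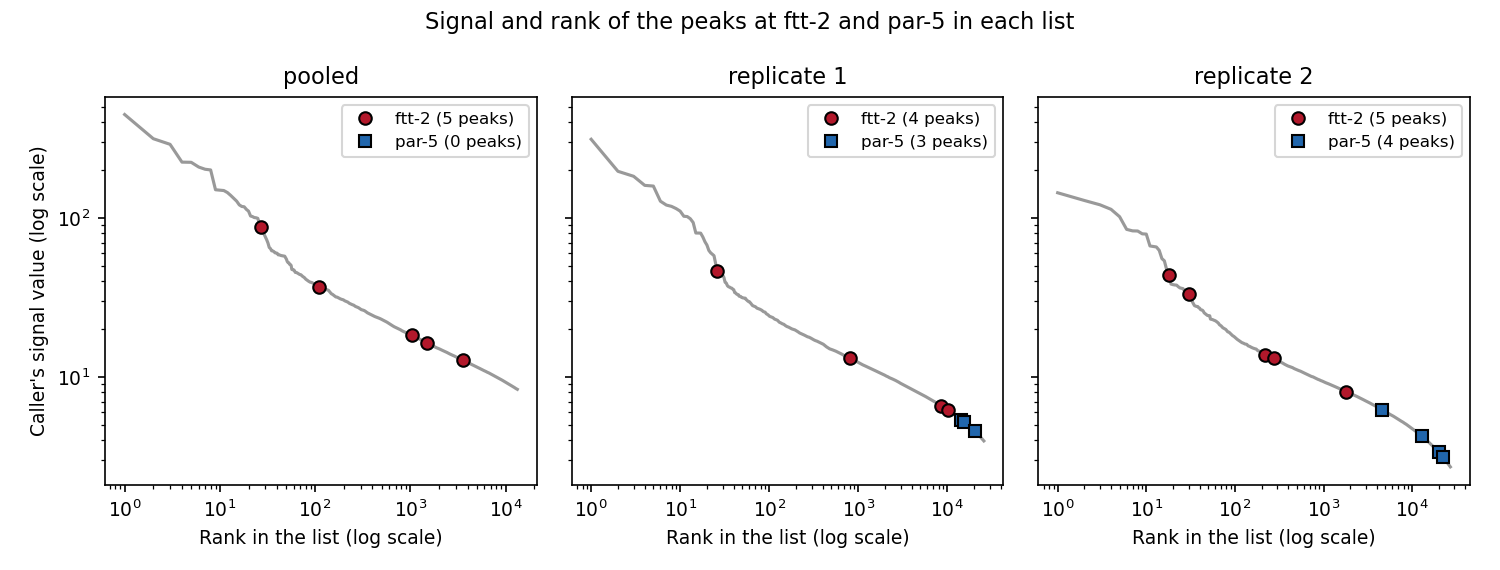
Signal of the caller against rank (both log axes) in the pooled list and in each replicate. The grey line is the whole list, red circles the peaks at ftt-2 and blue squares those at par-5; in the replicates every square lies below every circle. The scales of the 3 lists are not comparable with each other.

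**Figure D5:**
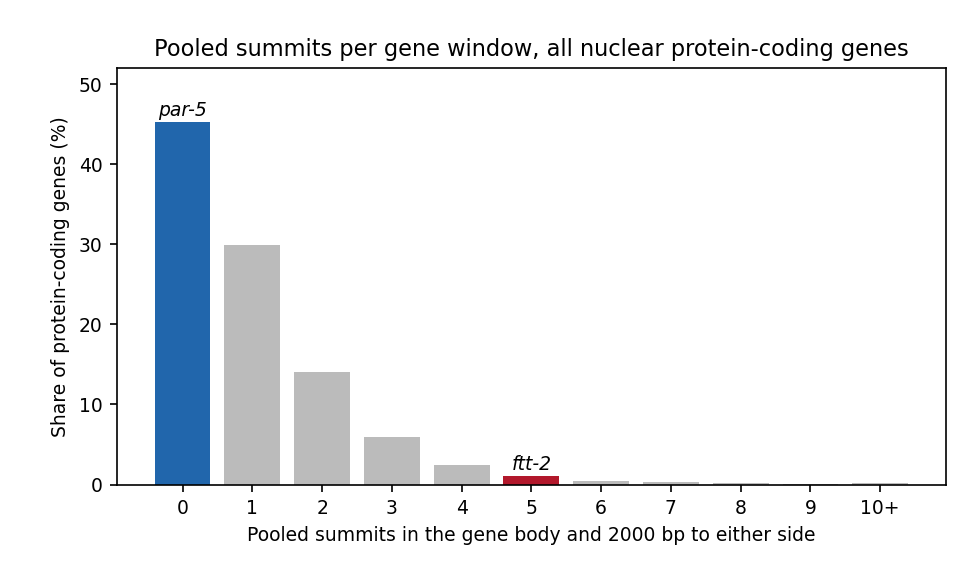
Share of 19973 nuclear protein-coding genes (bars, from 0) by the number of pooled summits in the gene body and 2000 bp to either side. Red marks the bar of ftt-2, with 5 summits, and blue that of par-5, with 0, which 45.3% of genes share.

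The windows from 250 bp before to 50 bp after the annotated 5′ end of both genes, called promoters here, are given next. They can be set beside the 2 thresholded peaks at ftt-2, which lay farther upstream. Where transcription starts was not examined, so these peaks cannot be placed inside or outside the full promoter. The windows are on the minus strand of ce11, taken from the RefSeq genome of the same assembly (ftt-2 at chrX:11605370-11605669, par-5 at chrIV:11821875-11822174). Capitals mark the bases from the annotated 5′ end on.
ftt-2 promoter: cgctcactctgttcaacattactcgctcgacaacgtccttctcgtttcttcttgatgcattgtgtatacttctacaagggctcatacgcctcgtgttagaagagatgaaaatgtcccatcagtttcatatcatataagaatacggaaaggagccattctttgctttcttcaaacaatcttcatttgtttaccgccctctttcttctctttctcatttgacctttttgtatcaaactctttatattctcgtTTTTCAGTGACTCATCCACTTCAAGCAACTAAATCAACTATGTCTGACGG
par-5 promoter: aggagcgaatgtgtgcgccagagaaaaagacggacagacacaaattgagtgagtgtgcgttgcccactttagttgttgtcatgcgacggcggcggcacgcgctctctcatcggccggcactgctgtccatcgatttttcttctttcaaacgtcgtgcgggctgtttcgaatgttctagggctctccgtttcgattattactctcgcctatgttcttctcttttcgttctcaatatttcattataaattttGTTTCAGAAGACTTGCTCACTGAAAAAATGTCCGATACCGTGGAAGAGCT

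A search of both strands for 8 short motifs found few matches, and all are descriptions of letters in these windows. Nuclear receptors are known to bind hexamers such as AGGTCA. The ftt-2 promoter had 1 match to it, as do 8.27% of 19973 promoters, and the par-5 promoter had none. The related hexamer AAGTCA, found in 13.3% of promoters, was in neither, nor was the related AGTTCA, found in 20.4%. The DAF-16 element TGTTTAC was found 1 time in the ftt-2 promoter and is in 4.77% of promoters. TATAAA was in both promoters and is in 37.9% of all, and GAGAGA was in that of par-5 and is in 21.8%. Neither promoter held TGATAA, which is in 30.2% of promoters, or CACGTG, which is in 5.82%. The stronger ftt-2 peak held none of the 8, each of which is in 2.33% to 17.8% of windows of 183 bp at pooled summits. The stretch shown of the weaker peak held AGTTCA 1 time, as do 9.56% of windows of 151 bp at pooled summits. The G and C share was 39.0% in the promoter of ftt-2 and 47.0% in that of par-5, against a median promoter of 34.3%.

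Genes were also ordered by how near the ranks of their strongest pooled peak came to those of the stronger ftt-2 peak, as a description. Likeness was the summed absolute log2 difference of the ranks in the pooled list and both replicates. It was taken over 2268 genes whose strongest pooled peak ranked 2000 or better and overlapped a peak in both replicates. The closest peak (chromosome I, 6837897 to 6838326) lies by ahcy-1, the gene of S-adenosylhomocysteine hydrolase, and dpf-3, a dipeptidyl peptidase gene. It ranked 30 in the pooled list, 28 in replicate 1 and 22 in replicate 2, a summed difference of 0.55. The next (chromosome III, 10759176 to 10759317) is shared by tasp-1, K01G5.10 and rnf-113 and ranked 26, 24 and 26, a summed difference of 0.70. No such measure could be made for par-5, which had no pooled peak.

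Genes of pathways linked to 14-3-3 proteins were read in the same window from 4 lists holding 54 genes. Whether each listed product binds a 14-3-3 protein was not examined. The thresholded list had a summit for 3 of the 54 (5.56%, against 2.09% of all genes) and the pooled list for 41 (75.9%, against 54.7%). The listed genes are longer, with a median body of 7137 bp against 2027 bp, and a longer body gives a wider window. By list, pooled summits were found for 8 of 11 polarity genes (72.7%, median body 6993 bp). The counts were 13 of 15 for insulin signalling and its FOXO cofactors (86.7%, 7281 bp) and 14 of 15 for Ras-MAPK, calcineurin-CRTC and energy signalling (93.3%, 8046 bp). For cell cycle and checkpoint control, the list of shortest median body, the count was 6 of 13 (46.2%, 2537 bp). The part of gene length in these shares was not tested. None of the polarity genes had a thresholded summit, and each of the other lists had 1 gene with one.

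The gene wee-1.3, which encodes a kinase of the Wee1 and Myt1 family that inhibits CDK-1, had a thresholded peak of signal 38.0 with its summit 378 bp upstream, ranked 102 in the pooled list, 269 in replicate 1 and 82 in replicate 2. For mpk-1, the ERK kinase at the end of the Ras pathway, the peak was in an intron (4223621 to 4224050 on chromosome III), with a signal of 32.2 and ranks of 161, 123 and 5607. For daf-16, the FOXO factor bound by FTT-2, it was in the 3′ UTR, with a signal of 31.8 and ranks of 169, 87 and 24444. Of these 3 peaks, that of wee-1.3 had the closest ranks in the replicates, and those of mpk-1 and daf-16 ranked far lower in replicate 2 than in replicate 1. Of the 54 listed genes, which are longer, 41 had a pooled summit (75.9%), against 54.7% of all genes. The other 45.3% of all genes, par-5 among them, had none. Among the listed genes without one were sir-2.1, sgk-1, aak-1 and chk-1, and these 4 were singled out after their values were seen. The checkpoint gene hus-1, singled out in the same way, had no peak in any list. Of all genes, 22.0% had no summit in replicate 1 and 21.3% had none in replicate 2.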

How the data were processed

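Peaks of NHR-11 were measured by ChIP-seq in 2 samples, each with 1 technical replicate and a fragment range of 150 to 350 bp per the labels. The authors called peaks on each replicate, and on both together, against a control alignment, and derived the thresholded list from these, per the file descriptions deposited with the lists. The sources used here name no aligner, caller or version. The signal of each peak is the caller's value as deposited, used only within a list. The minus log10 q-value (−log10 of a q-value) was also deposited by the authors and was the same for all thresholded peaks. The summit offset, a whole number of bp deposited by the authors, was added to the peak start. Depth per sample is unknown, and lists on ce10 were not used here.

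Coordinates are 1-based on ce11, with Ensembl 115 genes. Summits were counted per gene with Python 3.11.15 and pandas 2.3.3. Counting was tested on simulated data, where all 200 genes with planted summits were recovered. Peaks of different lists were matched by an overlap of at least 1 bp, taking the nearest summit. Proteins were translated from annotated coding exons and aligned globally with Biopython 1.88 (BLOSUM, gap penalties 11 and 1).

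The members, lists and motifs were chosen with earlier results of these data known. Genes named are the members, their neighbours, list genes with a thresholded summit and the genes of most similar ranks. Outside this rule, 5 list genes without a pooled peak are named, chosen after their values were seen. Window width, overlap rule, list strictness, 5′ end and leaving out a replicate were varied. No test between groups was made, since there is 1 group.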

Additional observations from a re-analysis of the deposited data

How the results depend on the processing

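With 1000 or 5000 bp to either side, with any overlap of the peak in place of its summit, and with the 140 strongest thresholded peaks, ftt-2 kept a count of 2 thresholded peaks and par-5 a count of 0. Leaving out a replicate meant taking the 280 peaks of highest signal from the other replicate's own list, which is no repeat of the authors' thresholding. Without replicate 1 ftt-2 had 4 such peaks and without replicate 2 it had 1, while par-5 had 0 in both; the cause was not tested. The stronger ftt-2 peak ranked 27 of all pooled peaks, 18 without replicate 1 and 26 without replicate 2, and it ranked 5 among nuclear peaks alone, because mitochondrial peaks are then not ranked. Pooled peaks at ftt-2 numbered 4 with 1000 bp and 7 with 5000 bp, and at par-5 0 in each. In genes of 1000 to 2500 bp, a setting chosen after seeing the data, 0.513% had as many pooled peaks as ftt-2, against 2.23% of all genes, and 47.3% had any, against 54.7%. The share of genes with a thresholded peak was 1.55% with 1000 bp and 3.55% with 5000 bp, against 2.09%. No paired analysis was possible because the samples form 1 group. The rank of a strongest pooled peak and its distance could not be given for par-5, which has none.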

Other observations

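Farther out at ftt-2, the pooled list had 1 peak with its summit 6413 bp downstream of the 5′ end (signal 12.9, rank 3448), and replicate 2 had one there at rank 813, with none in replicate 1.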
